A study of Mus musculus with 24 samples.

Results

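Short genes were studied here as a length class of repair targets. They were the gene models of 1 to 4 kb that named a single symbol, shared no base with any other gene model, and had no symbol starting with Olfr, Vmn, Mir, Snor or Hist or with Gm and a digit, the usual names of olfactory and vomeronasal receptor, microRNA, small nucleolar RNA, clustered histone and predicted genes. The deposited tables held 25239 gene models, of which 24203 named 1 symbol. Among those, 3019 were 1 to 4 kb long, 640 of them overlapped another model, and 431 more were dropped by name, which left 1948 short genes, 971 on the plus and 977 on the minus strand. All 22255 other single-symbol models served as the comparison. The short genes had a median length of 2500 bases, against 16681 bases for the other models, and covered 4856689 bases in all, against 1016308474 bases. At the limits, 4921533I20Rik at 1000 bases and Klk1b11 at 3999 bases were included, while Taar1 at 999 bases and Zfp784 at 4001 bases were not. Of the 1861 short genes with a RefSeq gene type, 1639 (88.1%) were protein coding and 180 (9.67%) were long non-coding RNAs, against 84.2% and 8.86% of the other models. The median distance to the nearest other gene model was 5925 bases, and 1052 short genes had no other model within 5000 bases.

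The measurements came from excision repair sequencing of kidney and liver of wild-type female C57BL/6J mice aged 6 months (the strain label reads C57BL/6), kept in 12 h light and 12 h dark. All animals were injected intraperitoneally with cisplatin at 10 mg/kg and gave their tissue 2 h after it, so no untreated library entered the comparisons. Kidney and liver each had 12 libraries, 2 at each zeitgeber time (ZT, hours after lights on) of 0, 4, 8, 12, 16 and 20. Whether both libraries at a time came from different animals is not stated in the labels, and the p-values below therefore cover only library-to-library spread, which may be technical. A library held 8718055 to 33716763 reads in kidney and 12917058 to 28244795 in liver, of which 70402 to 236455 and 90789 to 185577 lay on the transcribed strand of the short genes.

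Cisplatin crosslinks neighbouring bases of a DNA strand, mostly guanines, and nucleotide excision repair cuts the lesion out as a short single-stranded oligomer. The method sequences those oligomers after they are pulled down with the repair factor TFIIH, so a read marks a repair event. In transcription-coupled repair, an RNA polymerase II stalled at a lesion in the template, the transcribed strand (TS), recruits the repair factors, while the non-transcribed strand (NTS) relies on global repair. The TS level of a gene therefore follows its transcription as well as its damage, and the damage itself was not measured in these tables.

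Levels are given as RPKM, the reads of a gene model scaled to its length in kb and to the reads of its library, and sums over marker genes as RPM, scaled to the library alone. The liver library at ZT0, replicate 1, stood apart from the others. Its hepatocyte markers summed to 377.7 RPM on the TS, against 511 to 600 in the other liver libraries, and its endothelial markers to 403, against 128 to 207. Read counts of the paired replicates differed most at ZT0, by 25.2 times the counting variance in liver and 14.9 times in kidney, against 2.94 to 6.02 times at the other times. Tubule markers summed to 469 to 533 RPM on the TS in kidney and at most 46.0 in liver, and hepatocyte markers to 72.2 to 96.2 in kidney, as the tissue labels say. The 5 podocyte markers, also of a kidney cell type, went the other way, with 66.3 to 111 RPM in kidney and 151 to 234 in liver. For genes named by the rank of a tested difference, calls that ended without 1 library are marked as such.

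The promoters of 10 genes are shown here as the sequence context of genes on which the results below turn: the strongest repair signal in kidney (Ier5l), a cytokine inhibitor repaired more in liver (Socs3), a ribosomal protein gene (Rpl10a), a kidney enzyme (Miox), the hepatocyte genes Crp, Cyp8b1 and Apoa5, and the time-of-day genes Tnnc1, Ppp1r3g and Kiss1. Each is the 250 bases before the RefSeq start on GRCm38.p6, read in the direction of transcription: Ier5l at chr2:30474200-30474449 (minus), Socs3 at chr11:117969367-117969616 (minus), Rpl10a at chr17:28328221-28328470 (plus), Miox at chr15:89334223-89334472 (plus), Crp at chr1:172697806-172698055 (plus), Cyp8b1 at chr9:121916306-121916555 (minus), Apoa5 at chr9:46268358-46268607 (plus), Tnnc1 at chr14:31208062-31208311 (plus), Ppp1r3g at chr13:35967656-35967905 (plus) and Kiss1 at chr1:133326962-133327211 (plus). Capitals mark matches to the motifs searched, which do not overlap one another here. These were the TATA box, searched as TATAAA in the printed direction between positions -45 and -16, and on both strands the E-box, searched as CACGTG, the cAMP response element, searched as TGACGTCA, the GC box, searched as GGGCGG, the CCAAT box, searched as those 5 letters, and the CArG box bound by serum response factor.
Ier5l: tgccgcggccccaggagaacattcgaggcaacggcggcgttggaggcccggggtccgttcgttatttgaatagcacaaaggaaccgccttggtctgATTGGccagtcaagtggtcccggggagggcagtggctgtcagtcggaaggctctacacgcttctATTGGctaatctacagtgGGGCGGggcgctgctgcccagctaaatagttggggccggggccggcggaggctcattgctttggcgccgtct
Socs3: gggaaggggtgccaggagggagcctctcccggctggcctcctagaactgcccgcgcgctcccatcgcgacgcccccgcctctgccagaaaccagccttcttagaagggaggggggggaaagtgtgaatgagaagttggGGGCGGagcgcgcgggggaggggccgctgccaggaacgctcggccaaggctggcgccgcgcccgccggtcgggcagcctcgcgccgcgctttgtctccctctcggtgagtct
Rpl10a: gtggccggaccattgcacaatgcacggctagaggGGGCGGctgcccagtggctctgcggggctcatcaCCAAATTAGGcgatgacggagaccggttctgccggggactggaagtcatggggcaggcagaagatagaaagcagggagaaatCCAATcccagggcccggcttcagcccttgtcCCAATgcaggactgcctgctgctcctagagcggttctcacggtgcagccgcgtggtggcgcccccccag
Miox: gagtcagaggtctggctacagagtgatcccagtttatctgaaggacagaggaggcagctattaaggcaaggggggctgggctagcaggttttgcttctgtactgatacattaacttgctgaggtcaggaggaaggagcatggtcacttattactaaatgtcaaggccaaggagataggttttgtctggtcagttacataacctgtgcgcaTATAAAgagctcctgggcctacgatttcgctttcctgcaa
Crp: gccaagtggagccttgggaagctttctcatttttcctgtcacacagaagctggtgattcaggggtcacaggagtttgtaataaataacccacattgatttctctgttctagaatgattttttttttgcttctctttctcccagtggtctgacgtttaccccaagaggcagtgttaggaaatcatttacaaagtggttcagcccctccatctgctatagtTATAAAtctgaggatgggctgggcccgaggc
Cyp8b1: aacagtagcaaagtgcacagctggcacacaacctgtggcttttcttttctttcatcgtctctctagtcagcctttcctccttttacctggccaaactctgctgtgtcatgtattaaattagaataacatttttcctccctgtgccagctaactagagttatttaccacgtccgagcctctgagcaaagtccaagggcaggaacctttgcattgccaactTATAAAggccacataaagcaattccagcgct
Apoa5: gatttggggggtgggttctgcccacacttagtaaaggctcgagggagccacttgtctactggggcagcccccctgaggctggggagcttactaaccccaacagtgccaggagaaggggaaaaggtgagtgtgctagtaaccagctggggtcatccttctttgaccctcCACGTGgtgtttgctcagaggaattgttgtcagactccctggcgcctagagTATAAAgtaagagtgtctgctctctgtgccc
Tnnc1: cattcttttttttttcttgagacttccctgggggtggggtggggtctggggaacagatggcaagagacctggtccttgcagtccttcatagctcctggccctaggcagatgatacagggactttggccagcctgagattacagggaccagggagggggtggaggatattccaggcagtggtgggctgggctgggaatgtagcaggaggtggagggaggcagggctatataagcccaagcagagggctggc
Ppp1r3g: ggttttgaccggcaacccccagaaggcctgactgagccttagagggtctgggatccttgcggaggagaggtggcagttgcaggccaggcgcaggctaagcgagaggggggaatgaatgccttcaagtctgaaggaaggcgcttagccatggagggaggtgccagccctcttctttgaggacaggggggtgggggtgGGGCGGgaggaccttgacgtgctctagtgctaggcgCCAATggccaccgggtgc
Kiss1: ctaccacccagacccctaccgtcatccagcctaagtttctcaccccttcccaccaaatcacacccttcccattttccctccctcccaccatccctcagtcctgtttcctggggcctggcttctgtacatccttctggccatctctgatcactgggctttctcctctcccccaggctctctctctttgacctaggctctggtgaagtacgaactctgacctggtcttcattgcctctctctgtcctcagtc

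A RefSeq start lay within 50 bases of the model's start for 1357 of the 1948 short genes (69.7%) and for 14611 of the 22255 other models (65.7%). Among these 15968 promoters, 2.88% held the TATA box, 6.84% the E-box, 2.11% the cAMP response element, 43.2% the GC box, 35.8% the CCAAT box and 1.34% the CArG box. The TATA box was found in 118 short-gene promoters (8.70%), against 2.34% of the other promoters, and its share was 3.45% for models of 4 to 20 kb, 1.58% for 20 to 100 kb and 0.860% above 100 kb (lengths counted under the same rule). CpG-rich promoters, with an observed over expected CpG count of at least 0.6, made up 34.3% of the short genes and 46.6% of the others. Among the printed promoters, Miox, Crp, Cyp8b1 and Apoa5 held a TATA box and 2 to 4 CpG sites, while Ier5l held 20 and Socs3 26 CpG sites and no TATA box. The 466 short genes with a CpG-rich promoter had a median TS level of 2.97 RPKM in kidney and 2.74 RPKM in liver, against 0.106 and 0.0617 RPKM for the 891 with a CpG-poor promoter. These are descriptions of letters in a window, and no factor's binding was measured.

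As a pool, the short genes were repaired at a higher density than the rest of the genic sequence, on both strands. Their TS level was 1.56 ± 0.107 RPKM in kidney (lowest 1.40, median 1.57, highest 1.69, SD, n = 12) and 1.43 ± 0.0668 RPKM in liver (lowest 1.33, median 1.44, highest 1.54, n = 12), against 0.679 ± 0.0170 and 0.700 ± 0.0111 RPKM for the other models. Every library lay above every pooled value of the other models. On the NTS, the short genes had 0.477 ± 0.0362 RPKM in kidney and 0.432 ± 0.0223 RPKM in liver, against 0.111 ± 0.00858 and 0.0991 ± 0.00521 RPKM. The density of the short genes over that of the other models was thus 2.29 ± 0.206 in kidney and 2.04 ± 0.112 in liver on the TS, and 4.31 ± 0.0854 and 4.37 ± 0.125 on the NTS. The difference between strands was therefore smaller: 76.5 ± 0.759% of the genic reads of short genes were on the TS in kidney and 76.7 ± 0.555% in liver, against 86.0 ± 1.24% and 87.6 ± 0.737% of those of the other models.

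Much of the higher density sat in short genes that lie close to other genes. With only the 1052 short genes that had no other gene model within 5000 bases, the TS density ratio was 1.34 in kidney and 1.13 in liver, and the TS share of genic reads was 80.4% in kidney and 82.2% in liver. The other models in this ratio were left unchanged and were not limited to isolated ones. In bulk tissue, fewer cells of a type and less repair per cell cannot be told apart, which holds for each level given here.

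Repair density changed with gene length on each strand in its own way. On the TS in kidney it was 0.844 RPKM in 293 models under 1 kb, 1.56 RPKM in the 1948 short genes, 1.44 RPKM in 6134 models of 4 to 20 kb, 1.06 RPKM in 5632 models of 20 to 100 kb and 0.378 RPKM in 1556 models over 100 kb. In liver the same classes had 0.802, 1.43, 1.39, 1.08 and 0.418 RPKM, so the mean TS density was highest in the short genes in both tissues. In liver the gap to the 4 to 20 kb class was within the SD, and in the libraries of ZT0 replicate 2 and ZT20 replicate 1 the longer class was the higher one, with 1.36 and 1.37 RPKM, against 1.34 and 1.36 RPKM in the short genes. The NTS density also was highest in the short genes, with 0.408, 0.477, 0.256, 0.119 and 0.0531 RPKM in kidney and 0.365, 0.432, 0.241, 0.105 and 0.0434 RPKM in liver from the shortest to the longest class. The TS share of genic reads was higher in each longer class up to 100 kb, with 67.4, 76.5, 84.9, 89.9 and 87.6% in kidney and 68.8, 76.7, 85.2, 91.2 and 90.6% in liver. The plot of density by length class shows the means with their SD over libraries.

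**Figure D1:**
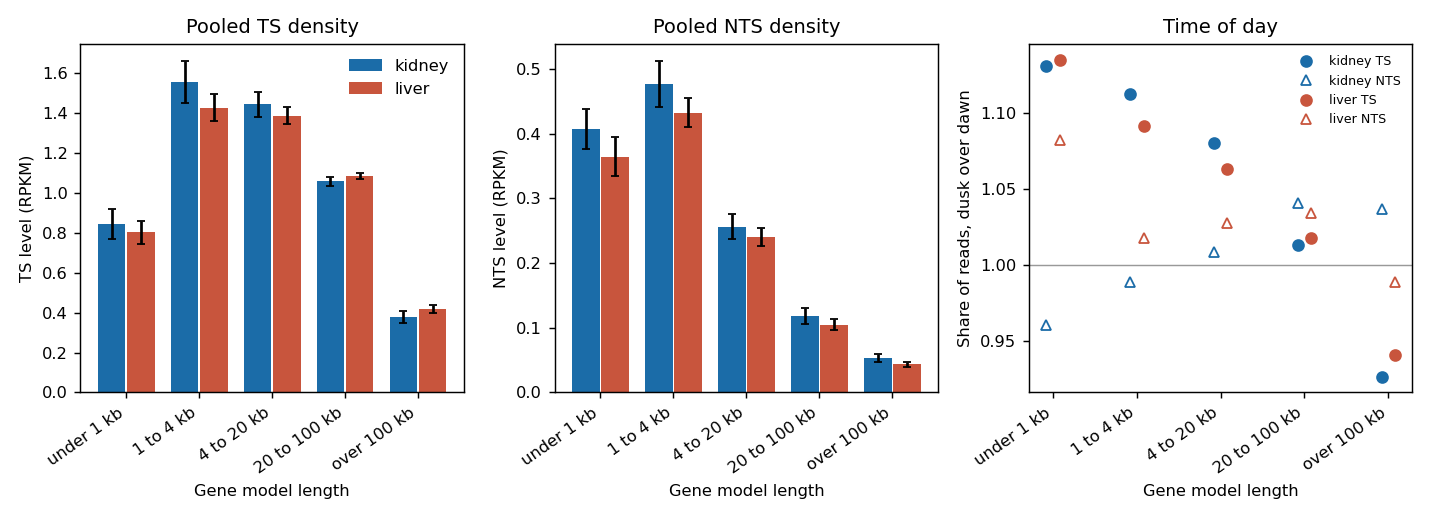
Pooled repair density (RPKM) on the TS (left) and NTS (middle) of gene models in 5 length classes, chosen by the same rule apart from length; bars are means and error bars SD over the 12 libraries of kidney (blue) and liver (red). The right panel gives the ratio of each class's share of reads at dusk over dawn, TS as filled circles and NTS as open triangles. Models of 1 to 4 kb have the highest mean density on both strands, with 1.56 RPKM in kidney and 1.43 RPKM in liver on the TS, where the liver bar lies within the SD of that for 4 to 20 kb (1.39 RPKM).

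The pool hid a wide spread between genes. The median short gene had a TS level of 0.352 RPKM in kidney and 0.182 RPKM in liver, below the 0.534 and 0.439 RPKM of the other models, whereas the 75th percentile was 2.71 and 2.65 RPKM, against 1.83 and 1.84 RPKM, and the 95th was 5.69 and 5.36 RPKM, against 4.18 and 4.03 RPKM. A TS level of 1 RPKM or more was reached by 763 short genes (39.2%) in kidney and 715 (36.7%) in liver, against 40.9% and 40.7% of the other models. On the NTS the median short gene was the higher one, with 0.203 and 0.111 RPKM against 0.0940 and 0.0692 RPKM. Just 249 short genes in kidney and 237 in liver held 50% of the class's TS reads, and the 10 with the most reads held 3.39% and 3.48%. No TS read was found in any library for 18 short genes in kidney and 22 in liver.

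The genes with the highest TS levels were of several kinds. Ier5l, an immediate early response gene at chr2:30472641-30474199, led in kidney with 12.4 ± 1.98 RPKM (lowest 9.54, median 12.4, highest 15.6, n = 12), against 2.52 ± 0.819 RPKM in liver (1.56, 2.48 and 4.72). Map1lc3a, which encodes an LC3 protein of the autophagosome membrane, followed with 11.6 ± 1.53 RPKM in kidney (9.40, 11.4 and 14.4) and 8.88 ± 0.955 RPKM in liver (7.20, 8.90 and 10.5). The kidney and liver libraries did not overlap for Ier5l and overlapped for Map1lc3a. The next 6 genes of the kidney order lay close together: H2afx, the histone variant phosphorylated at DNA breaks, at 9.25 ± 1.25 RPKM, Socs1, an inhibitor of cytokine signalling, at 9.01 ± 1.54, the vesicle GTPase Arf5 at 8.98 ± 1.07, the co-repressor Irf2bp1 at 8.95 ± 0.906, the RNA-methylation cofactor Rbm15b at 8.92 ± 0.833 and the lysosome-positioning subunit Borcs6 at 8.78 ± 0.979. These 6 did not differ beyond their spread.

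In liver the order was Map1lc3a, then G0s2 at 8.76 ± 1.28 RPKM, an inhibitor of the lipase that opens fat stores, Irf2bp1 at 8.54 ± 1.13, Arf5 at 8.31 ± 1.00, the endosomal adaptor subunit Ap5b1 at 8.22 ± 0.716, Borcs6 at 8.21 ± 0.812, Socs3 at 7.90 ± 0.871 and Aspdh at 7.82 ± 0.771. Neighbours in this order were within their spread of each other. Socs3, another cytokine signalling inhibitor, had 4.87 ± 0.642 RPKM in kidney (4.09 to 6.15) and 7.90 ± 0.871 RPKM in liver (6.66 to 9.90), so its groups did not overlap. G0s2 had 6.17 ± 1.34 RPKM in kidney and Aspdh 4.13 ± 0.492 RPKM.

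Strand preference was measured gene by gene with edgeR's quasi-likelihood test, TS against NTS within the same libraries, fitted on all models and adjusted by Benjamini-Hochberg over all of them; a gene is said to be called when the adjusted p is under 0.05. In kidney, 958 of 1302 short genes tested were called higher on the TS (73.6%), against 78.6% of all models tested, and 198 were called lower (15.2%), against 11.1%. In liver, 903 of 1155 were called higher (78.2%), against 77.9%, and 170 lower (14.7%), against 11.3%. The test left out 646 short genes in kidney and 793 in liver for too few reads. The median log2 ratio of TS over NTS was 1.74 in kidney and 2.01 in liver, against 2.34 and 2.50 over all models tested. By length class the kidney medians were 1.35 under 1 kb, 1.74 in the short genes, 2.31 at 4 to 20 kb, 3.02 at 20 to 100 kb and 2.57 over 100 kb.

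**Figure D2:**
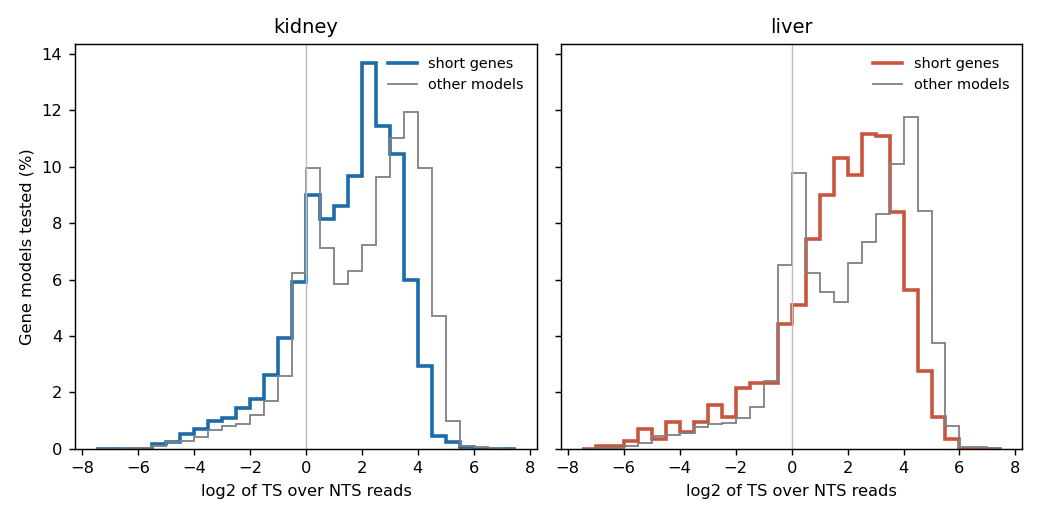
Share of the gene models tested (percent, vertical axis) at each log2 ratio of TS over NTS reads (horizontal axis), for the short genes (thick coloured line) and the other models (thin grey line) in kidney and liver. The medians of the short genes, 1.74 in kidney and 2.01 in liver, lie left of those of all models tested, short genes included, 2.34 and 2.50.

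The widest TS preference belonged to genes with little NTS repair of their own. Msantd4 at chr9:4383537-4386869 had 1.48 ± 0.149 RPKM on the TS (1.14, 1.49 and 1.65) and 0.0274 ± 0.0213 RPKM on the NTS (0, 0.0250 and 0.0688) in kidney, a 56.0-fold fitted difference (log2 5.81 ± 0.18 SE, adjusted p = 3.9e-20). In liver it was 60.9-fold. Zfp579, a zinc finger gene among the 10 with the most reads in kidney, had 7.42 ± 1.05 RPKM on the TS and 0.194 ± 0.0808 RPKM on the NTS in kidney, and 6.08 ± 0.939 and 0.0914 ± 0.0336 RPKM in liver, a 36.6-fold difference in kidney and 62.9-fold in liver. Phxr4 (40.6-fold), Tmem81 (38.0-fold), the taste receptor Tas2r137 (28.4-fold) and Ly6g5b (27.9-fold) completed the kidney list. In liver Tmem81 (54.6-fold), Ly6g5b (48.2-fold), the calcium-binding S100a16 (45.1-fold) and Gpaa1 (41.2-fold), of the glycosylphosphatidylinositol transamidase, followed Zfp579 and Msantd4. TS and NTS values did not overlap in any of these genes in the tissue named.

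In the opposite direction, some genes carried far more repair on their NTS than on their TS. Tmem190 at chr7:4782940-4784340 had 0.116 ± 0.0660 RPKM on the TS and 4.34 ± 0.809 RPKM on the NTS in kidney (log2 -5.13 ± 0.16), and 0.0429 ± 0.0359 RPKM on the TS and 4.95 ± 0.851 RPKM on the NTS in liver (log2 -6.58 ± 0.18, 95.5-fold, adjusted p = 1.9e-22). Nppa, the atrial natriuretic peptide gene, had 0.0276 ± 0.0349 RPKM on the TS and 1.20 ± 0.305 RPKM on the NTS in kidney (log2 -5.13 ± 0.26). Camp, the cathelicidin gene of granulocytes, had log2 -4.76 in kidney. Gpr151, an orphan receptor, had log2 -4.58 in kidney and -6.02 in liver, and Trp53tg5 had -4.11 in kidney and -5.70 in liver. Pdia2, a protein disulfide isomerase best known from pancreas, had 0.474 ± 0.170 RPKM on the TS and 2.98 ± 0.726 RPKM on the NTS in kidney, and 0.0679 ± 0.0345 and 3.80 ± 0.425 RPKM in liver. The TS values lay below the NTS values in every library of both tissues for Tmem190, Nppa and Pdia2.

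These genes often ended towards a neighbour on the opposite strand, whose own TS is their NTS. An opposite-strand gene model began or ended within 5000 bases after the gene's end for 91 of the 198 short genes called lower on the TS in kidney (46.0%) and 87 of 170 in liver (51.2%), against 240 of 958 (25.1%) and 225 of 903 (24.9%) of those called higher. Before the gene's start, such a model lay near 17.2% of the genes called lower in kidney and 20.0% in liver. For the genes called higher these shares were 23.7% and 24.4%. Counting both sides of the gene, 110 genes called lower in kidney (55.6%) and 104 in liver (61.2%) had an opposite-strand model within 5000 bases. Of the genes called higher, 390 (40.7%) and 375 (41.5%) had one. The models near genes called lower had a median TS level of 2.42 RPKM in kidney and 2.47 RPKM in liver. For the genes called higher, such models had 1.76 and 1.63 RPKM. All genes called lower had a median TS level of 0.224 and 0.152 RPKM, which the call itself favours. Tmem190 faced Tmem238, 444 bases after its end, with 3.23 and 3.44 RPKM on that model's TS in kidney and liver, and Pdia2 faced Axin1, a Wnt pathway scaffold, at 187 bases with 1.96 and 1.99 RPKM. Nppa faced Clcn6 at 2184 bases (2.94 and 2.09 RPKM), Camp faced Nme6 at 4415 bases (1.45 and 1.69 RPKM), and Trp53tg5 faced Sys1 at 4793 bases (4.55 and 4.22 RPKM). The part of read-through repair in the NTS signal was not tested.

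The TS level of short genes separated kidney from liver widely. Of 1225 short genes tested, 582 were called higher in kidney (47.5%), against 40.4% of all models tested, and 322 lower (26.3%), against 34.7%. The median log2 difference of kidney over liver was 0.14, against 0.04 over all models tested. A further 723 short genes had too few reads to be tested.

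Genes higher in kidney included nephron genes and developmental factors. Miox, the enzyme that begins inositol breakdown in the proximal tubule, had 4.50 ± 0.660 RPKM in kidney (3.63, 4.54 and 6.07), against 0.0710 ± 0.0600 RPKM in liver (0, 0.0611 and 0.209), log2 5.86 ± 0.19, adjusted p = 1.9e-18. The lowest kidney library lay above the highest liver library. The proximal tubule protein gene Tmem174 (log2 6.01), Guca2b, which encodes uroguanylin (5.67), the developmental factors Hoxd10 (5.69), Pou3f3 (5.43) and Hoxd9 (5.14), and the non-coding 2900092D14Rik (5.23) were called higher too. Pou3f3 and 2900092D14Rik lie 126 bases apart on the same strand so their values are not independent.

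Among the genes with the largest differences lower in kidney were several of hepatocyte secretion and bile acid synthesis. Crp, the acute-phase C-reactive protein gene at chr1:172698056-172699966, had 0.0599 ± 0.0553 RPKM in kidney (0, 0.0558 and 0.180), against 2.65 ± 0.407 RPKM in liver (2.08, 2.54 and 3.41), log2 -5.67 ± 0.23, adjusted p = 1.4e-16. Cyp8b1, the sterol 12-alpha-hydroxylase of bile acid synthesis, had 0.0912 ± 0.0936 RPKM in kidney, against 3.51 ± 0.408 RPKM in liver (log2 -5.34), and Apoa5, a regulator of plasma triglycerides, 0.117 ± 0.0498 RPKM, against 4.22 ± 0.354 RPKM (log2 -5.23). No kidney library reached the lowest liver library in any of these genes. Orm1 (-5.83), A1bg (-5.77) and Vtn (-5.41) were called lower too, as was 1810008I18Rik. Mup3 (-6.23) belongs to a family of near-identical major urinary protein genes, so its reads may be split or shared with its copies.

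Gene groups followed these lines. All 18 apolipoprotein and other hepatocyte secretory genes were called lower in kidney, with a median log2 difference of -4.12, against 0.04 over all models tested. Pooled, they had 0.482 ± 0.0430 RPKM in kidney and 3.25 ± 0.229 RPKM in liver. Of the 11 tubule genes, 10 were called higher in kidney and Rnf186, an E3 ubiquitin ligase, was called lower, with 5.40 ± 0.778 RPKM in kidney and 5.84 ± 0.501 RPKM in liver. Of the 47 Hox, Sox, Fox and Pou factors, 39 were tested, 35 called higher and 2 lower, with a median of 2.26. Hoxb4 had 6.37 ± 0.906 RPKM in kidney and 1.28 ± 0.551 RPKM in liver, and Hoxb8 5.68 ± 1.16 and 0.189 ± 0.136 RPKM, whereas Foxq1 was called lower, with 4.38 ± 0.457 and 5.61 ± 0.580 RPKM. A gene could pass the low-count filter through 1 tissue alone, and such a gene could hardly be called in the other direction. In the time-of-day contrast given below, 11 tubule genes had enough TS reads in kidney and 4 in liver. For the hepatocyte genes these numbers were 13 and 18.

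The ribosomal protein genes tested differed in 1 direction, and the next 4 groups had calls in both. All 28 cytosolic ribosomal protein genes tested, of 29, were called higher in kidney, with a median of 0.30. Rpl10a had 5.72 ± 0.922 RPKM in kidney and 4.85 ± 0.665 RPKM in liver (log2 0.16 ± 0.052). Of 19 respiratory chain genes tested, 13 were called higher and 1 lower, among the 13 Cyc1, a subunit of complex III, with 6.96 ± 1.08 and 5.87 ± 0.805 RPKM. Of 24 immediate early and stress genes, 13 were called higher and 4 lower, with Socs3 among the 4 at log2 -0.78 ± 0.057. The heat shock genes (7) had 3 higher and 1 lower, with Hspa1b at 4.76 ± 0.974 RPKM in kidney and 2.06 ± 0.402 RPKM in liver. Of the metallothionein, peroxidase and thiol genes, 8 of 9 were tested, 2 called higher and 2 lower. Gpx1 had 5.35 ± 0.754 and 5.09 ± 0.646 RPKM and was not called.

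Other groups had low levels in both organs. The 74 keratin-associated, cornified envelope and defensin genes had 0.0502 ± 0.00829 RPKM as a pool in kidney and 0.0145 ± 0.00436 RPKM in liver, and just 5 could be tested between tissues, all called higher in kidney. Genes this low in liver could pass the low-count filter through kidney alone, so the shared direction of these calls may come from the filter. Among these 5, Defb29 had 0.687 ± 0.167 RPKM in kidney and 0.0102 ± 0.0152 RPKM in liver. The 27 taste, trace amine and formyl peptide receptors had 0.0628 and 0.0436 RPKM. Of 31 chemokine, cytokine and interferon genes, 11 were tested, 3 called higher and 5 lower, the neutrophil chemokine Cxcl1 among the lower ones with 1.50 ± 0.287 RPKM in kidney and 3.23 ± 0.250 RPKM in liver. No gene of the clock and protocadherin beta lists was among the short genes.

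**Figure D3:**
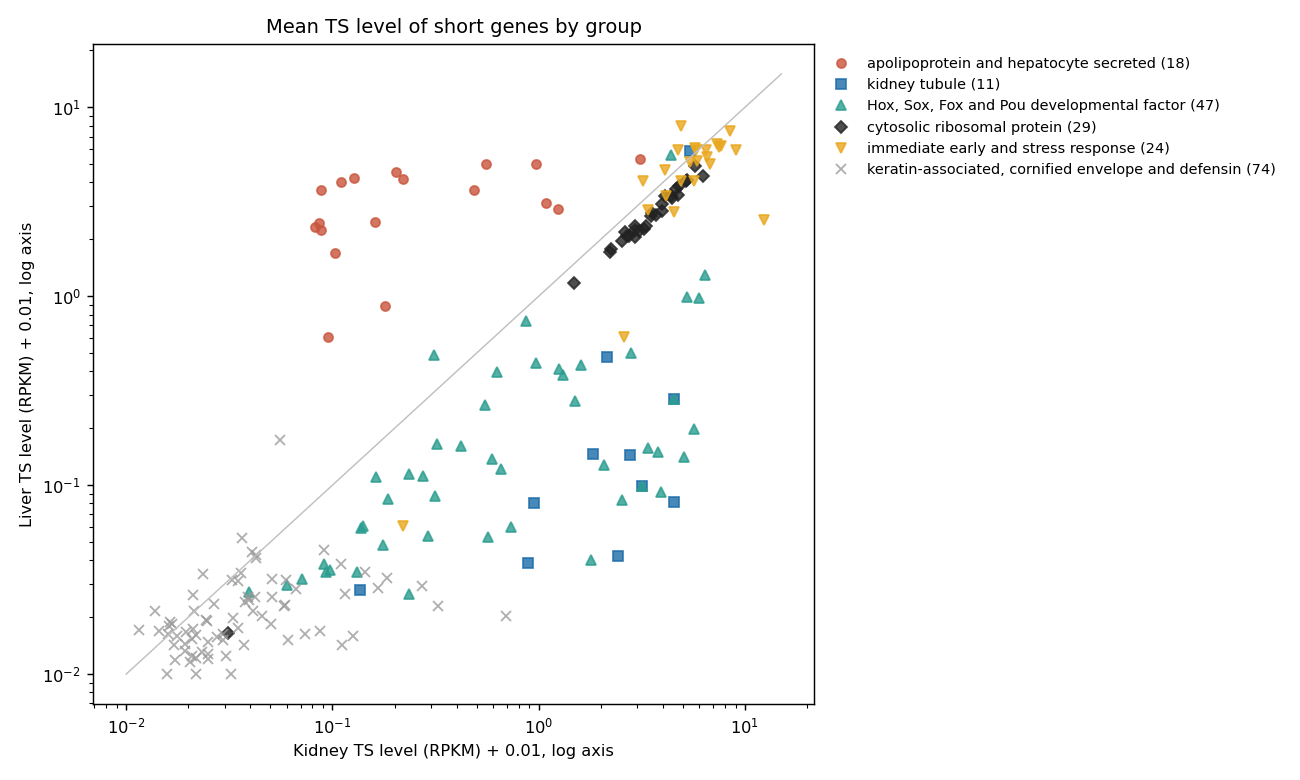
Mean TS level of each short gene of 6 groups in kidney (horizontal axis) and liver (vertical axis), as RPKM plus 0.01 on log axes; each point is a gene, and the grey line marks equal levels. Hepatocyte secretory genes average 0.482 RPKM in kidney and 3.25 RPKM in liver, and tubule genes 2.45 and 0.373 RPKM.

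The strand preference itself differed between the tissues for many short genes. The TS over NTS ratio was called higher in kidney for 297 of 1365 short genes tested (21.8%), against 22.2% of all models tested, and lower for 395 (28.9%), against 35.9%, with a median log2 difference of -0.09, against -0.14. Sowaha at chr11:53476578-53480195 had 1.54 ± 0.287 RPKM on the TS and 0.430 ± 0.155 RPKM on the NTS in kidney, but 0.153 ± 0.0587 and 0.965 ± 0.205 RPKM in liver, so the preferred strand was a different one in each tissue (log2 difference of ratios 4.51 ± 0.17, adjusted p = 1.2e-23). Its opposite-strand neighbour Shroom1, 8811 bases on, had 0.740 RPKM on its TS in kidney and 3.87 RPKM in liver. Pgam2, the muscle phosphoglycerate mutase gene, had NTS levels of 2.59 ± 0.238 RPKM in kidney and 2.12 ± 0.187 RPKM in liver, while its TS level was 2.08 ± 0.355 and 0.0939 ± 0.0372 RPKM (4.17 ± 0.16). The neighbour Dbnl ends 656 bases from it and had 4.32 and 4.22 RPKM on its TS.

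In the other direction, Adam1a at chr5:121518604-121521695 had near-equal TS levels, 2.32 ± 0.277 RPKM in kidney and 2.70 ± 0.194 RPKM in liver, but 1.85 ± 0.291 RPKM on the NTS in kidney and 0.115 ± 0.0602 RPKM in liver (log2 -4.21 ± 0.18). The kidney and liver NTS values did not overlap. Sebox, a homeobox gene at chr11:78503513-78505081, lies 1187 bases after the plasma protein gene Vtn on the same strand, and 1973 bases from Tmem199 on the opposite one. Its TS level was 0.103 ± 0.0549 RPKM in kidney and 2.47 ± 0.436 RPKM in liver, beside 0.0999 and 4.03 RPKM for Vtn, and its NTS level 2.81 ± 0.245 and 3.43 ± 0.521 RPKM, beside 2.36 and 2.33 RPKM for Tmem199 (log2 difference of ratios -4.23 ± 0.21). Among groups, 13 of 18 hepatocyte secretory genes had a lower ratio in kidney and 1 a higher one, Apoe, with log2 1.62 ± 0.14. Of the 24 immediate early genes, 16 had a lower ratio in kidney and 2 a higher one.

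Time of day moved the pool of short genes little, and in the same direction in both tissues. The share of all TS reads of the gene models that fell in short genes averaged, at ZT0, 4, 8, 12, 16 and 20, 1.08, 1.15, 1.21, 1.08, 1.00 and 0.983% in kidney and 0.947, 0.995, 1.03, 0.987, 0.934 and 0.899% in liver. Around dusk (ZT8 and ZT12) the kidney libraries had 1.19, 1.24, 1.00 and 1.16%, against 0.962, 1.00, 1.01 and 1.15% around dawn (ZT20 and ZT0), means of 1.15 ± 0.0999% and 1.03 ± 0.0799% (SD, n = 4 each). The kidney groups overlapped. The liver libraries had 1.04, 1.02, 0.995 and 0.980% around dusk, against 0.889, 0.908, 0.981 and 0.913% around dawn, means of 1.01 ± 0.0250% and 0.923 ± 0.0400%. Just the highest dawn library, the one that stood apart, reached the lowest dusk library. The ratio of the means was 1.11 in kidney and 1.09 in liver, or 1.08 to 1.16 and 1.08 to 1.11 when each library was left out in turn. A 24 h cosine fitted to the 12 libraries had an amplitude of 0.109 ± 0.0240 percentage points with its peak at 6.54 h in kidney and 0.0600 ± 0.0128 percentage points with its peak at 7.61 h in liver.

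The same ratio on the NTS was 0.989 in kidney and 1.02 in liver. Over the length classes in order of length, the TS ratio of dusk over dawn was 1.13, 1.11, 1.08, 1.01 and 0.927 in kidney and 1.13, 1.09, 1.06, 1.02 and 0.941 in liver, whereas on the NTS it was 0.961, 0.989, 1.01, 1.04 and 1.04 in kidney and 1.08, 1.02, 1.03, 1.03 and 0.989 in liver. Shares sum to a whole, so a higher share in short models comes with a lower one in long models. Cell markers moved with time as well. In kidney the endothelial markers summed to 227 to 263 RPM on the TS around dusk, against 163 to 208 around dawn, with 10 of 10 higher, and the mesenchymal ones to 47.8 to 61.1, against 29.1 to 47.8, with 8 of 8 higher, while the tubule markers gave a ratio of 1.01. In liver the hepatocyte markers gave 1.19 with 15 of 18 higher and the endothelial ones 0.852 with 1 of 10 higher, and no marker was at 0. These liver values include the dawn library that stood apart, with an endothelial sum of 403 RPM. The other dawn libraries had 128, 146 and 152 RPM, all below the 167 to 190 RPM around dusk. The hepatocyte sums at dawn were 378 RPM in that library and 557, 511 and 525 RPM in the others, against 566 to 600 RPM around dusk. The part of the cell markers in the shares was not tested.

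**Figure D4:**
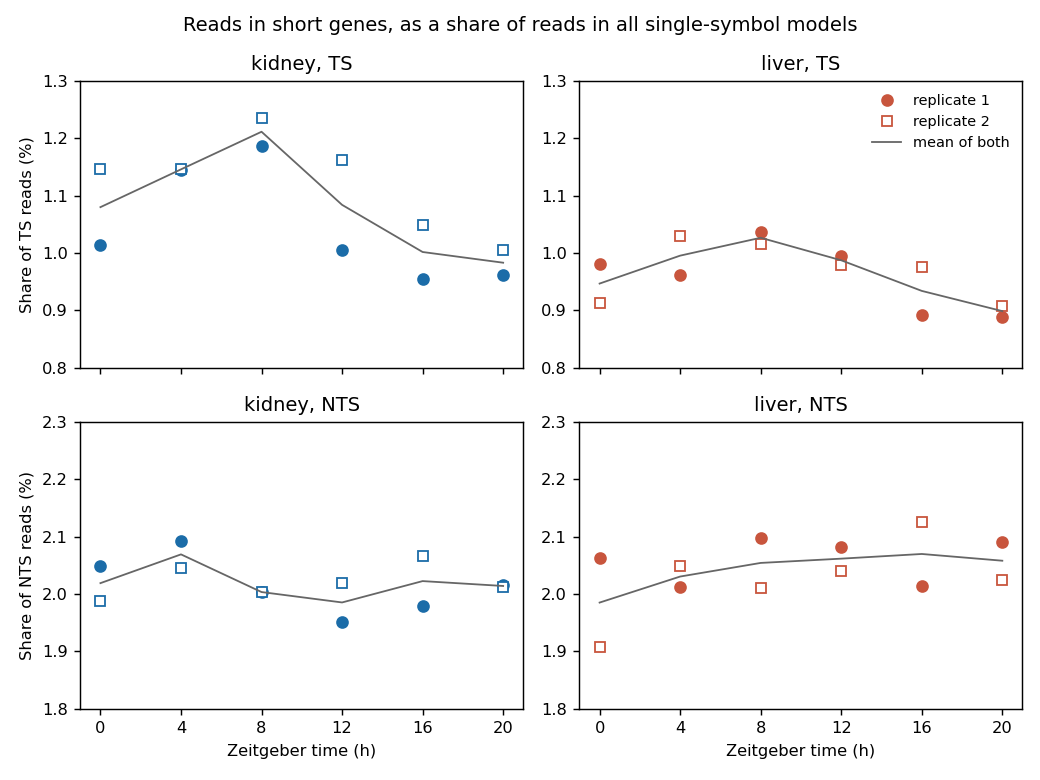
Share of reads in short genes (percent of the reads of all single-symbol models on the same strand) against zeitgeber time in hours, TS above and NTS below, kidney left and liver right; each point is a library and the line joins the means of both replicates. TS means are highest at ZT8, 1.21% in kidney and 1.03% in liver, and lowest at ZT20, 0.983% and 0.899%.

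Few single short genes passed the test for a 24 h rhythm in TS repair. Of the scalings run, only that on the short genes alone changed the window in which most of them peaked. In kidney 80 of 1155 short genes tested were called rhythmic (6.93%), against 15.4% of all models tested. A peak between 4 and 12 h was called for 68 of them (5.89%), against 4.41% of all models, and a peak between 16 and 24 h for 9 (0.779%), against 10.7%. With the libraries scaled on the short genes alone, 57 were called, 20 with a peak between 4 and 12 h and 35 with a peak between 16 and 24 h, so the split of peaks was the opposite one, and 31 of the 80 remained called. Scaled by DESeq2 size factors, 71 and 8 were called in these windows, and scaled on library totals, 95 and 6. The share called rhythmic in kidney was 10.4% at 4 to 20 kb, 17.5% at 20 to 100 kb and 36.5% over 100 kb, and the share called with a peak between 16 and 24 h was 3.20, 13.8 and 35.3%. The part of read number per gene in these shares was not tested. The median amplitude of the short genes was 0.15 on the log2 scale, against 0.13. Same-numbered kidney libraries deviated together, which these fits and the kidney p-values for time given below ignore. With the replicate as a block 157 short genes were called (13.3%), against 25.8% of all models. The count was 122 without kidney ZT0 replicate 2, and 45, 29, 13, 34, 44 and 43 without ZT4 replicate 2, ZT8 replicate 1, ZT8 replicate 2, ZT16 replicate 1, ZT20 replicate 1 and ZT20 replicate 2.

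In liver 75 of 1018 short genes tested were called rhythmic (7.37%), against 17.3% of all models tested, 44 with a peak between 4 and 12 h (4.32%), against 6.47%, and 26 with a peak between 16 and 24 h (2.55%), against 10.0%. Scaled on the short genes alone, 64 were called, 12 and 48 in these windows, of which 43 were among the 75. Size factors of DESeq2 gave 37 and 26 in these windows, and library totals 65 and 23. The count was 135 without liver ZT0 replicate 1, the library that stood apart. It was 47 without ZT4 replicate 2, 33 and 41 without the ZT8 replicates 1 and 2, 49 without ZT12 replicate 2, 45 without ZT16 replicate 1, and 32 and 33 without the ZT20 replicates 1 and 2.

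The plain contrast of dusk against dawn called fewer genes. In kidney 7 of 1212 short genes tested were higher around dusk (0.578%), against 0.906% of all models tested, and 3 lower (0.248%), against 4.98%. With the replicate as a block the 2 directions together made 106 genes (8.75%), against 21.6% of all models, instead of 10. Scaled on the short genes alone, 1 was called, a lower one, and scaled on library totals, 9 higher and 0 lower. The count was 105 without kidney ZT0 replicate 2, 1 without ZT0 replicate 1, 2 without either ZT4 or either ZT16 library, and 0 without either ZT8 library, ZT12 replicate 2 or either ZT20 library. In liver 30 of 1060 were higher (2.83%), against 4.68%, and 18 lower (1.70%), against 7.59%. Scaled on the short genes alone, 10 were higher and 35 lower. The liver total of 48 was 93 and 111 without the ZT0 replicates 1 and 2, 26 and 27 without those of ZT4, 12 and 8 without those of ZT8, 13 without either of ZT12, 22 and 25 without those of ZT16, and 8 and 15 without those of ZT20. The median log2 difference of the short genes was 0.07 in kidney and 0.11 in liver, against 0.01 and -0.01 over all models tested. Scaled on the short genes alone, these medians were 0.00 and 0.01, against -0.06 and -0.11, so the short genes differed from the rest by about the same amount and the 0 of the scale moved.

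The liver gene with the widest swing was Ppp1r3g, which encodes a glycogen-targeting subunit of protein phosphatase 1, at chr13:35967906-35970388. Its TS level at dusk was 4.08, 4.72, 4.68 and 4.89 RPKM, against 0.625, 0.884, 1.81 and 2.42 RPKM at dawn. All dusk libraries lay above all dawn libraries. The fit gave 3.53-fold (log2 1.82 ± 0.23, adjusted p = 0.0011) and a cosine with an amplitude of 1.04 ± 0.19 and its peak at 9.0 h (adjusted p = 0.0072). In kidney Ppp1r3g had 0.150 ± 0.108 RPKM. Its NTS moved with it in liver, with 2.01, 2.26, 1.82 and 2.06 RPKM at dusk, against 0.479, 0.741, 1.03 and 1.01 RPKM at dawn (log2 1.25 ± 0.16, adjusted p = 1.5e-05).

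Kiss1, the kisspeptin precursor gene at chr1:133327212-133329722, had 3.18, 3.48, 3.12 and 2.99 RPKM on the TS in liver at dusk, against 1.22, 1.27, 1.39 and 1.95 RPKM at dawn (log2 1.11 ± 0.14, adjusted p = 0.0011), with its peak at 8.8 h. The groups did not overlap, and its liver NTS differed more, with 2.02, 1.94, 1.27 and 1.74 RPKM at dusk, against 0.350, 0.282, 0.308 and 0.597 RPKM at dawn (log2 2.05 ± 0.24). In kidney its TS had 0.841, 1.00, 0.992 and 1.11 RPKM at dusk, against 1.08, 0.964, 1.14 and 1.04 RPKM at dawn, which overlapped. A model shared by Golt1a and Kiss1 lies 4185 bases before it on the same strand, with 2.13 RPKM on its TS in kidney and 3.38 RPKM in liver. E130012A19Rik, at chr11:97627387-97629716, had 2.89, 4.30, 2.99 and 4.39 RPKM in liver at dusk, against 2.02, 1.72, 1.56 and 1.53 RPKM at dawn (log2 1.09 ± 0.18, adjusted p = 0.0046), without overlap. It was also called rhythmic in kidney (amplitude 0.46 ± 0.12, peak at 8.7 h), a call lost under 9 of the alternatives run.

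Tnnc1, the gene of cardiac and slow muscle troponin C at chr14:31208312-31211711, was called rhythmic in both tissues and under every alternative run for its rhythm. In kidney the replicate pairs at ZT0, 4, 8, 12, 16 and 20 had 0.917 and 1.09, 1.45 and 1.41, 2.04 and 2.00, 1.95 and 2.04, 2.91 and 2.08, and 1.99 and 1.86 RPKM. In liver the pairs were 0.706 and 0.597, 0.520 and 0.444, 0.673 and 1.07, 1.39 and 1.77, 1.86 and 1.64, and 1.64 and 1.07 RPKM in the same order. The liver amplitude was 0.95 ± 0.11 with its peak at 15.3 h (adjusted p = 0.00061) and the kidney amplitude 0.50 ± 0.098 with its peak at 13.9 h (adjusted p = 0.0087).

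Further liver genes higher at dusk were Vpreb3, of pre-B cells, with 1.09, 1.57, 0.796 and 1.14 RPKM at dusk, against 0.194, 0.424, 0.232 and 0.429 RPKM at dawn (log2 1.74 ± 0.36, adjusted p = 0.013), and Hcar2, the receptor for niacin and hydroxybutyrate, with 0.998, 1.05, 0.989 and 1.10 RPKM, against 0.345, 0.527, 0.437 and 0.702 RPKM (0.99 ± 0.24, adjusted p = 0.023). Neither overlapped between dusk and dawn. The call of Vpreb3 was lost without ZT8 replicate 2, ZT12 replicate 2 or ZT20 replicate 1 (adjusted p up to 0.065), and that of Hcar2 without any of the ZT8 and ZT12 libraries or ZT20 replicate 1 (up to 0.10). Lower at dusk were Klhdc7b, with 0.572, 0.683, 0.621 and 0.977 RPKM, against 1.74, 1.56, 1.53 and 2.09 RPKM (-1.29 ± 0.28, adjusted p = 0.015), and Odf3b, whose gene family encodes outer dense fiber proteins, with 1.38, 1.16, 2.02 and 3.02 RPKM, against 4.15, 4.55, 3.64 and 3.22 RPKM (-1.13 ± 0.18, adjusted p = 0.0035). The call of Klhdc7b was lost without either ZT8 library, ZT12 replicate 1 or ZT20 replicate 1 (adjusted p up to 0.063). Klhdc7b and Odf3b lie 7636 bases apart on opposite strands. The NTS of Odf3b differed the same way, with 2.84, 2.01, 2.65 and 3.22 RPKM at dusk, against 3.95, 5.37, 4.46 and 5.10 RPKM at dawn (-0.95 ± 0.15).

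Among the other liver genes, 3 more were lower at dusk. Tmem101 had 0.862, 0.931, 1.12 and 1.38 RPKM at dusk, against 1.66, 2.04, 1.92 and 1.63 RPKM at dawn (-0.79 ± 0.13, adjusted p = 0.005). Map10, a microtubule-associated protein gene, had 0.567, 0.458, 0.543 and 0.465 RPKM, against 0.831, 0.828, 0.851 and 0.883 RPKM (-0.78 ± 0.17, adjusted p = 0.016). Cebpb, an early response factor of liver, had 2.15, 2.57, 2.23 and 2.83 RPKM, against 2.86, 4.38, 5.86 and 3.54 RPKM (-0.76 ± 0.22, adjusted p = 0.048). The groups did not overlap in these genes. The call of Map10 was lost without ZT8 replicate 2, ZT12 replicate 2 or ZT20 replicate 1 (adjusted p up to 0.070). The 5.86 RPKM of Cebpb came from the library that stood apart, and its call was lost without that library, without any other liver library except ZT0 replicate 2, and when scaled on library totals (adjusted p up to 0.17).

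In kidney, Egr1, an immediate early transcription factor, had 8.45, 7.39, 4.83 and 6.50 RPKM on the TS at dusk, against 4.88, 4.75, 4.40 and 5.23 RPKM at dawn (log2 0.43 ± 0.098, adjusted p = 0.024). The ZT12 replicate 1 library lay inside the dawn range. Higher at dusk were also 4833411C07Rik with 0.844, 0.755, 0.971 and 1.00 RPKM, against 0.672, 0.425, 0.548 and 0.303 RPKM (0.88 ± 0.22, adjusted p = 0.035), and Ccno, the cyclin of multiciliated cells, with 1.80, 2.00, 1.27 and 1.46 RPKM, against 1.24, 0.895, 1.01 and 1.23 RPKM (0.54 ± 0.15, adjusted p = 0.047). Neither overlapped. The proteasome subunit gene Psmb6 had 5.85, 5.91, 4.21 and 5.26 RPKM, against 3.96, 4.36, 3.49 and 4.11 RPKM (0.36 ± 0.096, adjusted p = 0.044), and Tnnc1 had log2 0.49 ± 0.13 (adjusted p = 0.043).

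Lower at dusk in kidney were Apex1, the endonuclease of base excision repair, with 2.22, 2.64, 1.92 and 2.65 RPKM at dusk, against 2.74, 3.15, 3.56 and 3.31 RPKM at dawn (-0.48 ± 0.13, adjusted p = 0.047), and Commd4 with 3.03, 2.87, 3.57 and 3.05 RPKM, against 4.07, 3.90, 3.97 and 3.70 RPKM (-0.36 ± 0.093, adjusted p = 0.039). Apex1 and Commd4 did not overlap between dusk and dawn. Each of the 7 kidney genes named here for dusk against dawn lost its call under at least 7 of the alternatives run. Among the kidney rhythms, Kcna3, a potassium channel gene, had the largest amplitude (0.62 ± 0.15, peak at 4.2 h, adjusted p = 0.025), then Csf3, the granulocyte colony-stimulating factor gene (0.58 ± 0.16, 8.6 h, adjusted p = 0.047), and Fam212a (0.45 ± 0.099, 7.2 h) and the segmentation factor Hes7 (0.41 ± 0.094, 6.9 h) had smaller ones. Tekt2, a tektin of cilia and flagella, peaked at 17.0 h (0.43 ± 0.11). Each of these calls was lost when ZT8 replicate 2 was left out. In all, Csf3 lost its call under 12 of the alternatives run, 10 of them single libraries left out (adjusted p up to 0.26), Tekt2 under 8, Kcna3 under 6, Hes7 under 4 and Fam212a under 1.

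**Figure D5:**
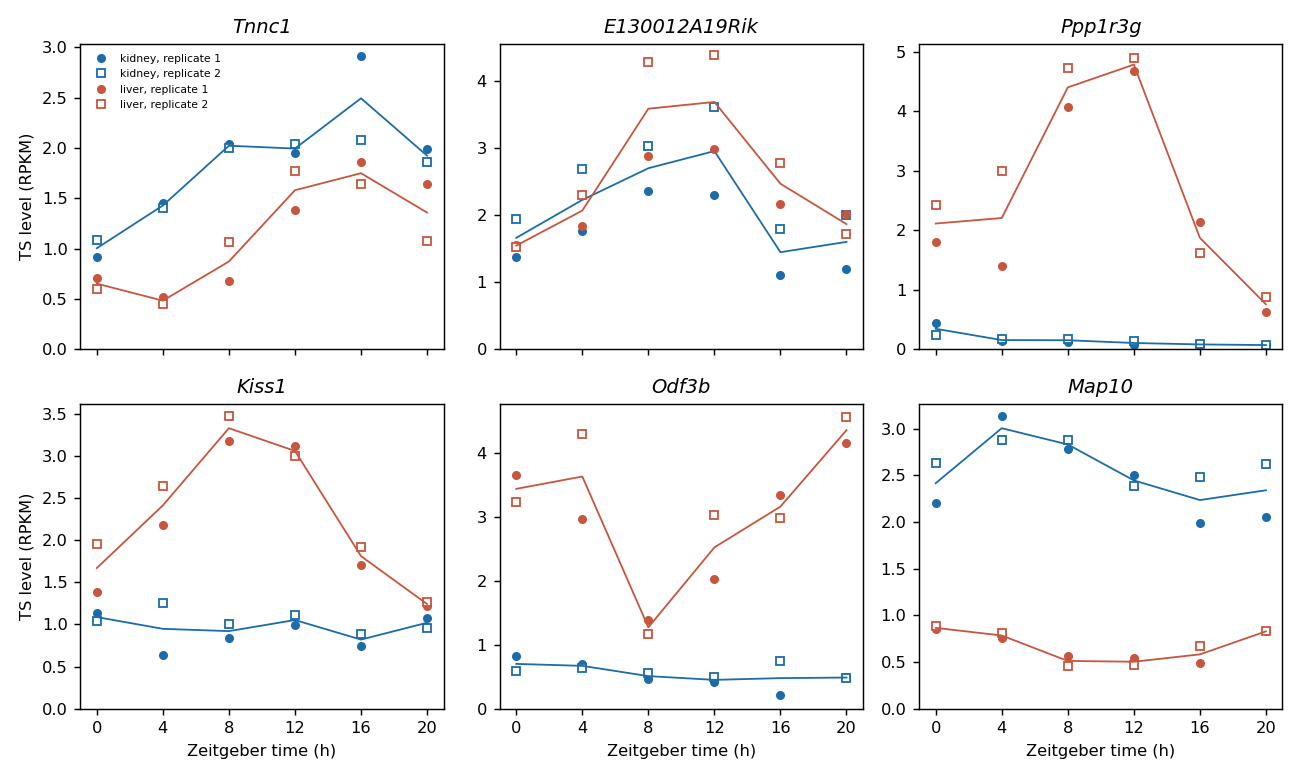
TS level (RPKM) of named short genes against zeitgeber time in hours, kidney in blue and liver in red, each point a library and the lines joining the means of both replicates. In liver Ppp1r3g lies between 4.08 and 4.89 RPKM at ZT8 and ZT12 and between 0.625 and 2.42 RPKM at ZT20 and ZT0.

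By group, the ribosomal protein genes that were called rhythmic peaked in 1 window. In kidney 14 of the 28 tested were called, against 15.4% of all models, all with a peak between 4 and 12 h, and in liver 8, against 17.3%, all in the same window. Scaled on the short genes alone, 5 were called in kidney and 1 in liver, again all in that window. Rpl10a had an amplitude of 0.27 ± 0.048 with its peak at 6.1 h in kidney (adjusted p = 0.0052) and 0.22 ± 0.052 with its peak at 8.4 h in liver (adjusted p = 0.029). In the dusk against dawn contrast, edgeR and DESeq2 both called 0 of 28 in kidney, where 18 had an unadjusted p under 0.05 and the median log2 difference was 0.28, against 0.01 over all models tested. With the replicate as a block, 13 were called in that kidney contrast, all higher at dusk, and 21 were called rhythmic in kidney. In liver edgeR called 3 (median 0.30, against -0.01). Of the respiratory chain genes 4 of 19 were called rhythmic in kidney, Cyc1 among them (0.21 ± 0.054, peak at 7.4 h), and 1 in liver. Among the immediate early genes, the rhythm test called 5 of 24 in kidney and 2 of 23 in liver, to be read against the same 15.4% and 17.3%. Of the 18 hepatocyte secretory genes tested in liver, edgeR and DESeq2 called 0 rhythmic, with 2 at an unadjusted p under 0.05. Of the 7 heat shock genes edgeR called 0 in either tissue, with 3 in kidney and 1 in liver at an unadjusted p under 0.05, while DESeq2 called 2 and 1.

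On the NTS, the number of kidney genes called between dusk and dawn turned on the pairing of replicates. Scaled on library totals, the median log2 difference of dusk over dawn over all models was 0.22 in kidney, against 0.01 in the fits given here, so differences are relative to that scaling. In kidney 1 of 1158 short genes tested was higher at dusk (0.0864%), against 0.0742% of all models tested, and 2 lower (0.173%), against 0.281%. The higher one was Pim3, a survival kinase gene, with 1.45, 2.04, 1.36 and 1.38 RPKM at dusk, against 0.765, 0.697, 0.868 and 0.880 RPKM at dawn (log2 0.77 ± 0.13, adjusted p = 0.013), while its TS had log2 0.07 ± 0.11 (adjusted p = 0.69). The lower ones were Rwdd2a (-0.90 ± 0.17, adjusted p = 0.018) and Pdia2 (-0.79 ± 0.14, adjusted p = 0.013), the gene that faces Axin1. Pim3 lost its call without ZT8 replicate 2 or ZT20 replicate 2 (adjusted p up to 0.20), Rwdd2a under 6 and Pdia2 under 5 of the alternatives run, library totals and these libraries among them. With the replicate as a block 96 short genes were called (8.29%), against 9.37% of all models, instead of 3. The count was 64 without kidney ZT0 replicate 2, 18 without ZT12 replicate 1, 1 without ZT12 replicate 2 or ZT20 replicate 1, and 0 without ZT8 replicate 2 or ZT20 replicate 2.

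In liver 11 of 951 were higher on the NTS at dusk (1.16%), against 1.47%, and 8 lower (0.841%), against 1.23%. After Kiss1 the largest was Fcna, a ficolin gene, with 0.147, 0.880, 0.763 and 0.824 RPKM at dusk, against 0.141, 0.289, 0.234 and 0.253 RPKM at dawn (1.40 ± 0.29, adjusted p = 0.0053), where ZT8 replicate 1 lay among the dawn libraries and the call was lost without ZT8 replicate 2 (adjusted p = 0.66). Lower at dusk were A1bg (-1.06 ± 0.20, adjusted p = 0.0023), a plasma protein gene whose TS also was called lower (-0.62 ± 0.18, adjusted p = 0.045), and Cops6, of the COP9 signalosome (-0.97 ± 0.22, adjusted p = 0.012), whose TS was not (adjusted p = 0.81) and whose NTS call was lost without ZT8 replicate 2 or ZT20 replicate 1 (up to 0.14). The liver total of 19 was 44 without ZT0 replicate 2, 5 without ZT8 replicate 2, 12 without ZT12 replicate 2 and 11 without ZT20 replicate 1.

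The difference between tissues in the dusk against dawn contrast was itself tested. It was called higher in kidney for 2 of 1281 short genes tested (0.156%), against 0.362% of all models tested, and lower for 1 (0.0781%), against 0.301%. Map10, 1 of the higher ones, had kidney values of 2.79, 2.88, 2.51 and 2.39 RPKM at dusk, against 2.06, 2.62, 2.20 and 2.63 RPKM at dawn, beside the liver values above (difference 0.89 ± 0.18 on the log2 scale, adjusted p = 0.029). The other higher one was Ptgds, a prostaglandin D synthase gene with a mean of 15.9 TS reads per library (2.20 ± 0.48, adjusted p = 0.042), which the rule for named genes leaves out as too low and which was named after its values were seen. Kiss1 was the lower one (-1.22 ± 0.22, adjusted p = 0.012). With the replicate as a block 8 short genes were called instead of 3. The count was 30 without liver ZT0 replicate 2 and 5 without liver ZT4 replicate 1, and it was 1 without either kidney ZT8 library, either kidney ZT12 library, kidney ZT20 replicate 1, liver ZT8 replicate 2, liver ZT12 replicate 2 or either liver ZT20 library. The call of Map10 was lost under 11 of the alternatives run.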

How the data were processed

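Repair was measured by excision repair sequencing in 24 libraries. The authors deposited read counts per gene model, for the TS and NTS separately, beside RPKM values (reads scaled to the model's length in kb and to the library's reads), per the file headers. The reads were mapped to mm10, per the submitters' processing notes. The aligner is not given in the sources used here. At the lesion step the labels' protocol names antibodies against cyclobutane pyrimidine dimers and BPDE adducts, while the series text describes a cisplatin antibody, so which was used is not settled here. Starts were taken as counted from 0 in the tables and are printed counted from 1. Tables of kidney reads drawn down to a common depth entered as an alternative only, and intergenic and overlap tables were not used.

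The members, gene lists and tests were chosen with earlier results of these data known. Pooled values are reads of all members per library and carry no test. Single genes were tested with edgeR 4.0.16 (quasi-likelihood, TMM scaling, low-count filter) in R 4.3.3 on the counts of all single-symbol models, with Benjamini-Hochberg adjustment over all of them and a threshold of 0.05. The designs were TS against NTS with the library as a block, kidney against liver, their interaction, a 24 h cosine, dusk (ZT8, ZT12) against dawn (ZT20, ZT0), and the difference of that contrast between tissues. Alternatives were DESeq2 1.42.0, other scalings, no filter, the replicate as a block, other lengths, isolated genes, and each library left out. Same-numbered kidney libraries deviated together (15 of 15 correlations above 0.1, 0.135 to 0.523), and those of liver less often (7 of 15). The main time fits did not use this pairing, so the kidney p-values for time ignore it. The replicate as a block entered only as an alternative. On simulated data for dusk against dawn in kidney (19047 models), the test recovered 45% of 1.5-fold and 89% of 2-fold changes and called 0.0318% of unchanged models. The simulation gave every model the same spread between libraries and had no replicate pairing. Its changed models were drawn from all models, so these rates need not hold for the real libraries or for short genes.

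Named genes followed a rule of rank: per tissue the 8 highest TS levels, the 6 largest and 4 smallest strand ratios, the 8 largest rhythms, the 5 largest dusk against dawn differences each way (3 on the NTS), between tissues the 8 largest level and 4 largest ratio and time differences each way, called genes entering only if they averaged 20 or more reads, and the 3 members with most reads of each list. A few genes that the rule picked are not reported here. Python 3.11.15, pandas 2.3.3 and matplotlib 3.10.9 were used.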

Additional observations from a re-analysis of the deposited data

Results flagged for a closer look

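The difference between tissues was itself tested and passed for 8 strand ratios and 2 time contrasts named in the report. The log2 TS over NTS ratio of kidney minus that of liver was 4.51 for Sowaha, 4.17 for Pgam2, 3.61 for Fgfbp1 and 3.61 for Tmem101, and -4.58 for Saa3, -4.23 for Sebox, -4.21 for Adam1a and -4.16 for Orm2. Fgfbp1, which encodes a carrier of fibroblast growth factors, had 0.716 RPKM on the TS and 0.0702 RPKM on the NTS in kidney, and 0.0226 and 0.0263 RPKM in liver. Both of its liver levels were very low, so its liver ratio rested on few reads. Tmem101 had 1.88 and 0.251 RPKM in kidney and 1.49 and 2.36 RPKM in liver, where its opposite-strand neighbour Nags, the enzyme that makes the activator of the urea cycle, had 5.04 RPKM on its own TS, against 0.730 RPKM in kidney. Saa3, a serum amyloid A gene, had 0.0934 and 0.119 RPKM in kidney and 1.68 and 0.0844 RPKM in liver. Orm2, an acute-phase plasma protein gene with near-identical copies beside it, had 0.0726 and 0.234 RPKM in kidney and 2.31 and 0.442 RPKM in liver. The difference of the dusk against dawn contrast, kidney minus liver, was 0.89 for Map10 and -1.22 for Kiss1 on the log2 scale. The part of neighbouring transcription in these values was not tested.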

How the results depend on the processing

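Of 89 tests of named genes, 64 stayed called under every setting run, 25 lost the call under at least 1, and 0 changed direction. With only short genes that had no other model within 5000 bases, the counts called were 429 and 371 for the strand contrast in kidney and liver, 371 for kidney against liver, 239 for the ratio between tissues, 22 and 23 for the rhythm, 4 and 17 for dusk against dawn on the TS and 1 and 6 on the NTS. The pooled share of TS reads was then 0.336% in kidney and 0.284% in liver, the TS density ratio over the unchanged set of other models 1.34 and 1.13, and the TS share of genic reads 80.4% and 82.2%. At lengths of 2000 to 4000 bases the pooled share of TS reads was 0.899% and 0.797%, and 77.5% of genic reads were on the TS in liver. With the replicate as a block, 157 short genes were called rhythmic in kidney, 106 for dusk against dawn on the kidney TS, 96 on the kidney NTS and 8 for the difference between tissues. In liver, same-numbered libraries deviated together less often than in kidney. There the block gave 84 rhythmic genes, 45 for dusk against dawn on the TS and 23 on the NTS. DESeq2 called 115 for the liver rhythm, 29 and 10 for dusk against dawn on the liver TS and NTS, and 5 for the difference between tissues. Without the filter on low counts, dusk against dawn called 21 and 31 on the TS in kidney and liver, and 44 and 36 on the NTS. Scaling on the short genes alone left 1 call for the kidney TS, library totals 1 for the kidney NTS, and the drawn-down tables gave 7 there. Leaving out each library in turn gave 13 to 122 rhythmic genes in kidney and 32 to 135 in liver, 0 to 105 and 8 to 111 for dusk against dawn on the TS, 0 to 64 and 5 to 44 on the NTS, and 1 to 30 for the difference between tissues. The strand contrast stayed at 1145 to 1157 in kidney and 1059 to 1073 in liver, kidney against liver at 884 to 922 and the ratio between tissues at 660 to 701. The cause of these moves was not tested, apart from the smaller number of genes under the isolation and length rules. In simulated kidney data 45% of 1.5-fold changes between dusk and dawn were called over all models, with the same spread for every model and no replicate pairing. Depth per gene was not varied there.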
